A study of Mus musculus with 2 samples.

Results

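Transcripts of 10 genes of osteoclasts, the cells that dissolve bone, were followed in mouse bone marrow stromal cells, before and after total body irradiation. The genes were listed by name and role, with earlier results of these data known. They were the regulator Nfatc1, the receptors Oscar and Calcr, and the fusion genes Dcstamp, Ocstamp and Atp6v0d2. The others were the acid transport genes Tcirg1 and Clcn7 and the enzymes Acp5 and Ctsk. All 10 were named on the array, each by 1 probe, among 16390 named genes. The cells came from C57BL/6 mice that were either unirradiated or taken 1 day or 3 days after a dose of 9.5 Gy. Each time point was measured on 1 array with 2 channels, the unirradiated RNA in Cy5 and the irradiated RNA in Cy3. The dyes were not exchanged on either array, so an effect of the dye and an effect of irradiation cannot be told apart. The series description gives 6 mice, and the sources used here do not state how these were divided or pooled over the arrays, nor how the stromal cells were isolated. With ratios alone, the level of osteoclast or stromal markers in any sample could not be read, only the difference between irradiated and unirradiated RNA.

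Osteoclasts form when precursors of the monocyte and macrophage line receive M-CSF and RANK ligand, largely from stromal and bone cells. RANK signalling, helped by receptors that pair with ITAM adaptors, switches on the transcription factor NFATc1, which drives the fusion genes and the resorption genes. The mature cell seals itself to bone, pumps protons and chloride into the gap below it, and releases cathepsin K to digest the exposed collagen. Several of these genes, among them Tcirg1, Nfatc1 and Dcstamp, are also active in other leukocytes.

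Values are log2 ratios, with the median over all genes of an array set to 0. The numerator of the deposited ratio is not stated, and the order of the sample titles alone would make it unirradiated over irradiated. A positive value is taken here to mean more transcript after irradiation, a direction that is likely but not settled. The basis is that p53 targets, which radiation is known to induce, had a higher median than mitotic genes on both arrays: 1.57 against 0.89 at day 1 and 1.12 against -3.10 at day 3. The mitotic genes were not low at day 1, when 11 of 23 were at least 2-fold higher and 0 lower, so the basis is weaker there than at day 3. If the ratio ran the other way, every "higher" and "lower" would be exchanged. The logarithm's base is likewise unstated, and folds assume base 2. A gene was called higher or lower at 2-fold or more, a log2 ratio of at least 1 in size. There was no replicate array, so no value has a replicate error and no test was possible. The one spread that could be measured, between different probes of a gene, had a pooled SD of 0.76 at day 1 (85 genes) and 0.58 at day 3 (116 genes).

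One day after irradiation, 3 of the 8 measured genes were higher by 2-fold or more and none were lower. They were the fusion gene Dcstamp, the proton pump gene Tcirg1 and, close to the threshold, the regulator Nfatc1. The background on that array was 30.7% of 10434 genes past 2-fold in either direction, with 19.6% higher and 11.1% lower. The median of the 8 was 0.67, where the median over all genes is 0 by construction. At day 3, none of the 8 genes with a ratio were past 2-fold, on an array where 14.2% of 11404 genes were (7.35% higher and 6.85% lower), and their median was 0.37. The 8 were not the same genes: Dcstamp had a ratio at day 1 only, Calcr at day 3 only, and Ocstamp on neither array. Over all named genes, 63.7% had a ratio at day 1 and 69.6% at day 3. The sources used here do not state the filter behind the empty entries, so an empty entry gives no level and no direction.

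**Figure D1:**
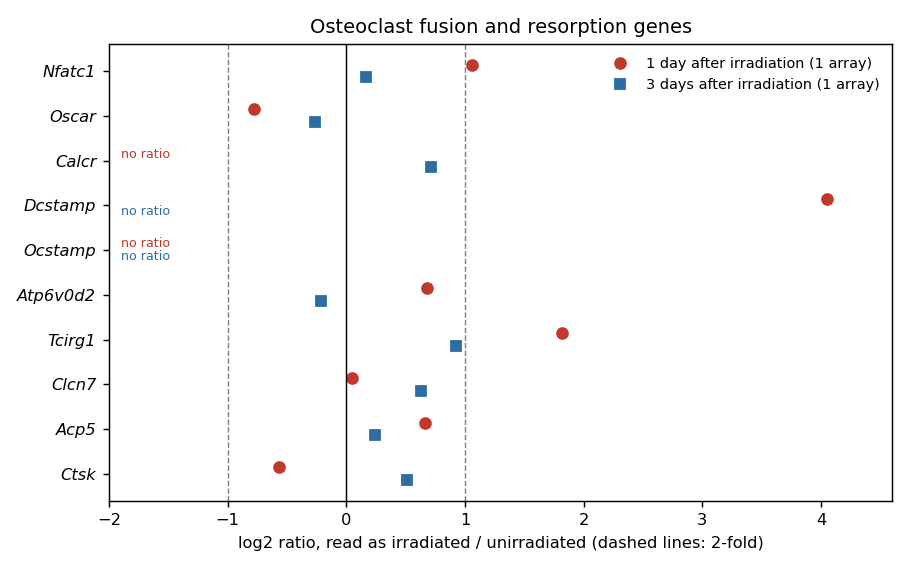
Log2 ratios of the 10 osteoclast genes (horizontal axis, read as irradiated over unirradiated) at day 1 (red circles) and day 3 (blue squares), 1 array each, with dashed lines at 2-fold. Dcstamp at 4.05, Tcirg1 at 1.82 and Nfatc1 at 1.06 lie beyond 2-fold at day 1, and all 8 genes with a ratio at day 3 lie between -0.27 and 0.92.

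Promoter sequence was set beside these values because Nfatc1 is itself one of the 10 genes and is known to act on others of them. RefSeq promoters (GRCm38.p6) were matched by symbol for 6 of the 10: Acp5, Ctsk, Tcirg1, Clcn7, Oscar and Calcr. Those not matched were Dcstamp, Ocstamp, Atp6v0d2 and Nfatc1. The 250 bases before the first listed start are printed for Tcirg1, the highest of the 8 measured genes at day 3, for Oscar, the lowest on both arrays, and for Ctsk, whose ratio differed most between the days. Tcirg1 has 3 listed starts, Oscar and Ctsk 1 each. Capitals mark the NFAT core GGAAA and the PU.1 core GAGGAA on either strand, so that TTTCC and TTCCTC are also marked. The windows are chr19:3907134-3907383 on the minus strand, chr7:3616158-3616407 on the minus strand and chr3:95498960-95499209 on the plus strand, each written 5′ to 3′ along its gene.
Tcirg1: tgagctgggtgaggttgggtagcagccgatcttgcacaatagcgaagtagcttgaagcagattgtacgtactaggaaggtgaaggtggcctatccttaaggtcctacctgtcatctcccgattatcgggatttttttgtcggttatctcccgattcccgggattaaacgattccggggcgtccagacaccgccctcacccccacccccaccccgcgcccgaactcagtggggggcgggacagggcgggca
Oscar: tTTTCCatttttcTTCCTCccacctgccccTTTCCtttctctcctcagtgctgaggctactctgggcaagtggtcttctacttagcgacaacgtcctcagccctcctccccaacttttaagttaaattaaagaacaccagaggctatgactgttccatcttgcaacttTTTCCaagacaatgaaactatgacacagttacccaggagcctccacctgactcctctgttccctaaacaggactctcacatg
Ctsk: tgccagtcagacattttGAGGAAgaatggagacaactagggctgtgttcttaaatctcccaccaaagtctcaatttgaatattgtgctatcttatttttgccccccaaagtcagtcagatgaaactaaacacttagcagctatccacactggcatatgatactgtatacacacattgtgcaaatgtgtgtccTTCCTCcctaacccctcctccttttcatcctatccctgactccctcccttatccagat

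The NFAT core was found in 3 of the 6 windows (Oscar, Acp5 and Clcn7), against 55.6% of 27025 promoter windows of the same length. Oscar held 3 copies, Acp5 and Clcn7 1 each, and Tcirg1, Ctsk and Calcr none. The PU.1 core was found in 2 of 6 (Ctsk with 2 copies, Oscar with 1), against 23.1% of all windows. The AP-1 letters TGANTCA were in none of the 6, against 6.87%, and the E-box CACGTG was in Clcn7 alone, against 6.05%. Both strands were searched, and no copy of the NFAT core overlapped a PU.1 core in Oscar, the 1 window with both. These matches describe the letters in the windows.

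Nfatc1, the master transcription factor of osteoclast differentiation, had a log2 ratio of 1.06 at day 1 (2.08-fold) and 0.17 at day 3. At day 1 it stood just past the threshold, by less than the spread between probes, with 81.4% of genes below it. At day 3 it was near the middle of the array, with 61.0% of genes below it. Nfatc1 is also used by lymphocytes.

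Oscar, an immunoglobulin-like receptor that binds collagen and signals through the FcR gamma chain, was at -0.78 at day 1 and -0.27 at day 3. It was the lowest of the measured genes on both arrays and within 2-fold on each, and its day 3 value changed sign, to 0.26, with ribosomal protein genes set to 0. Calcr, the receptor through which calcitonin halts resorption, had no ratio at day 1 and 0.71 at day 3 (1.64-fold). Neither receptor passed 2-fold on an array where it was measured, though Calcr at day 3 did, at 1.24, with ribosomal protein genes at 0.

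Dcstamp, the multi-pass membrane protein that precursors need in order to fuse, was at 4.05 at day 1, or 16.5-fold higher, with 97.7% of genes below it. It was probed under its older name Tm7sf4, and no ratio was given at day 3, so whether the difference lasted could not be read. Its partner in fusion, Ocstamp, was probed under the older name 4833422F24Rik and had no ratio on either array. Atp6v0d2, a pump subunit that is also required for fusion, was at 0.68 at day 1 and -0.21 at day 3. With ribosomal protein genes at 0, its day 1 value was 1.20, past 2-fold, and its day 3 sign changed, to 0.32. With the gene median at 0, the fusion genes gave 1 large ratio, 1 within 2-fold on both arrays and 1 that was not measured.

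Tcirg1, the a3 subunit that takes the proton pump to the membrane facing bone and whose loss causes osteopetrosis, was at 1.82 at day 1 (3.53-fold) and 0.92 at day 3 (1.89-fold). It lay above 90.9% of genes at day 1 and above 91.4% at day 3, so its position among all genes was close on both arrays while the size of the ratio was smaller at day 3. Clcn7, the chloride and proton exchanger of the same membrane, was at 0.05 at day 1 and 0.63 at day 3 (1.55-fold). Its position went from 52.0% of genes below it to 83.6%. Day 3 minus day 1, Tcirg1 was at -0.90 and Clcn7 at 0.59, in opposite directions and both within 2-fold.

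Acp5, the tartrate-resistant acid phosphatase used to stain osteoclasts, was at 0.66 at day 1 (1.58-fold) and 0.24 at day 3. Ctsk, the collagen-digesting cathepsin K, was at -0.57 at day 1 and 0.51 at day 3. Ctsk had 24.9% of genes below it at day 1 and 79.1% below it at day 3. The enzymes lay on opposite sides of 0 at day 1 and on the same side at day 3, all within 2-fold of unirradiated RNA. With ribosomal protein genes at 0, Acp5 at day 1 (1.19) and Ctsk at day 3 (1.04) were past 2-fold, and Ctsk at day 1 was at -0.05.

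Between the days, the 7 genes with a ratio on both arrays had a median difference of -0.42 (day 3 minus day 1), against -0.04 over 9800 genes. Ctsk was the 1 gene past 2-fold, at 1.08 (2.12-fold higher at day 3), where 28.9% of all genes were past 2-fold and 12.1% were higher. Clcn7 (0.59) and Oscar (0.51) were also higher at day 3. Acp5 (-0.42), Atp6v0d2 (-0.89), Nfatc1 (-0.89) and Tcirg1 (-0.90) were lower. These values lie close to the threshold on both sides. With the density peak of each array set to 0, Ctsk was at 0.89 and no longer past it, while Tcirg1, Nfatc1 and Atp6v0d2 were past it as lower, at -1.09, -1.08 and -1.08.

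**Figure D2:**
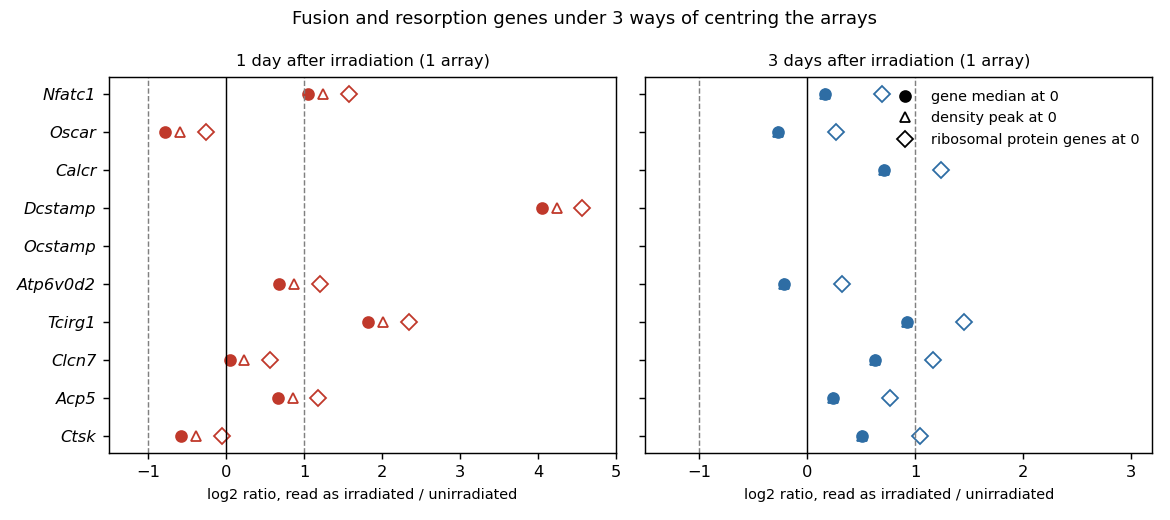
Log2 ratios of the 10 genes at day 1 (left) and day 3 (right) with 3 choices of zero: the median of all genes (filled circles), the density peak (triangles) and the median of ribosomal protein genes (diamonds), with dashed lines at 2-fold. Setting ribosomal protein genes to 0 moved every gene up by 0.52 at day 1 and 0.53 at day 3, so that 5 and 4 genes passed 2-fold in place of 3 and 0, while the share of all genes past 2-fold went from 30.7% to 35.8% and from 14.2% to 25.2%.

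Markers of other blood cells differed on the same arrays, and their part in the values above was not tested. In these bulk samples, a change in the number of cells of a type and a change in RNA per cell cannot be told apart. The marker lists were chosen with earlier results of these data known. At day 1, all 20 granulocyte markers with a ratio were at least 2-fold higher (range 4.07 to 8.28, median 6.06). So were all 19 pan-leukocyte markers with a ratio (2.22 to 8.17, median 5.06), where 19.6% of all genes were higher. Of the 12 macrophage markers measured, 8 were higher, 4 within 2-fold and 0 lower, with a median of 2.13. They ran from Axl at -0.43 to Ccr2 at 6.17, and Csf1r, at 0.78, was among the 4 within 2-fold. Cd68, a lysosomal protein of macrophages and osteoclasts, was at 3.71, and Adgre1, the F4/80 antigen, had no ratio on either array. At day 3 the medians were -1.03 for granulocyte (14 genes), -0.24 for pan-leukocyte (13 genes) and 0.62 for macrophage markers (10 genes, of which 4 were higher and 0 lower), with Cd68 at 1.06. The pan-leukocyte median at day 3 turned to 0.30 with ribosomal protein genes at 0. Osteoblast markers had a median of -1.06 at day 1 and -0.36 at day 3, and stromal markers -0.50 and 0.61. The osteoblast median at day 3 and the stromal median at day 1 changed sign with ribosomal protein genes at 0, to 0.18 and 0.02. At day 1 Dcstamp, at 4.05, lay within the range of the macrophage markers and just under that of the granulocyte markers, and the other 7 genes lay below every granulocyte and pan-leukocyte marker.

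**Figure D3:**
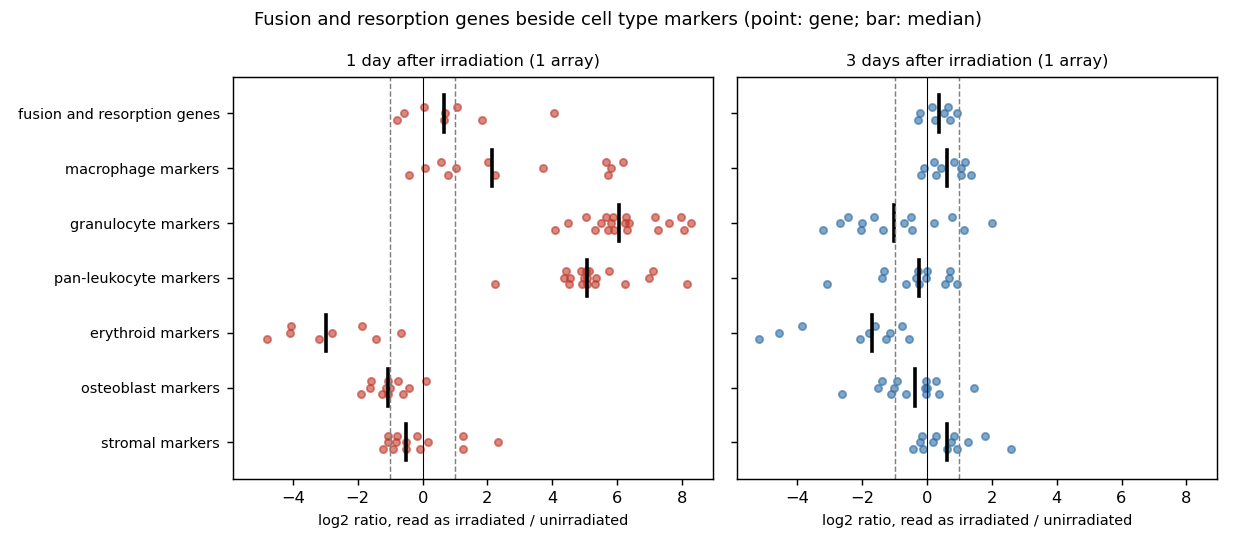
Log2 ratios of single genes (points) and their median (black bars) for the fusion and resorption genes and for marker lists of 6 cell types, at day 1 (left) and day 3 (right), with dashed lines at 2-fold. At day 1 the granulocyte and pan-leukocyte medians stand at 6.06 and 5.06 and that of the fusion and resorption genes at 0.67; at day 3 they are -1.03, -0.24 and 0.37.

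Upstream of these genes, the ligands and receptors that start osteoclast formation went both ways at day 1. Of 16 with a ratio among 20 listed, 9 were at least 2-fold higher and 4 lower, with a median of 1.23. That was 81.2% past 2-fold, against 30.7% of all genes. The lower side depended on the zero. With ribosomal protein genes at 0, 10 of 16 were higher and 1 lower at day 1 (median 1.76), where 35.8% of all genes were past 2-fold. RANK ligand (Tnfsf11), the decisive osteoclast cytokine, was at -1.32 at day 1 and 0.04 at day 3. Its decoy receptor osteoprotegerin (Tnfrsf11b) was at -0.28 at day 1 and 0.94 at day 3. Both were thus higher at day 3 than at day 1, by 1.36 and 1.22, and the receptor RANK (Tnfrsf11a) had no ratio on either array. M-CSF (Csf1) was at 0.24 and 0.49, and its receptor Csf1r at 0.78 and -0.20, all within 2-fold. Genes named as highest or lowest of a list were ranked by the mean of the arrays that measured them, which favours genes measured at day 1 only where day 1 ratios are larger. The highest were the interleukin Il1b (7.36 at day 1, 0.68 at day 3) and the signal regulatory protein gene Sirpb1a (7.81 at day 1, no ratio at day 3), which belongs to a family of similar genes. The ITAM adaptor Tyrobp, which is also in the pan-leukocyte list, was at 4.91 and 0.71. The lowest were the sphingosine kinase gene Sphk1 (-2.09 and -0.74) and the interleukin-1 receptor gene Il1r1 (-0.96, day 3 only). At day 3, 2 of 16 were higher and 0 lower (median 0.57), or 12.5% past 2-fold against 14.2% of all genes. With ribosomal protein genes at 0, 9 of 16 were higher (median 1.10), where 25.2% of all genes were past 2-fold.

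Signalling and transcription genes downstream of RANK and the ITAM adaptors were mostly higher at day 1 and mostly level at day 3. At day 1, 14 of 24 were higher and 1 lower (median 1.08), and at day 3, 1 of 20 higher and 1 lower (median 0.07). The shares past 2-fold were 62.5% and 10%, against 30.7% and 14.2% of all genes. The highest of the list were Fosl1, an AP-1 subunit (5.31 and 0.49), and the kinase gene Btk (2.48, day 1 only). Spi1, which encodes PU.1 (5.02 and -0.43), and the phospholipase gene Plcg2 (3.07 and 0.90) were above Btk at day 1; both were named after their values were seen. The lowest were Tal1 (-1.87 and -1.14), which is also an erythroid factor, and the adaptor gene Blnk (-0.55, day 1 only). Fos, the AP-1 subunit that osteoclasts require, was at 0.16 and 0.56, and Mitf had no ratio on either array. Between the days, 11 of 19 were at least 2-fold lower at day 3 and none higher, where 16.8% of all genes were lower. All 19 pan-leukocyte markers with a ratio were higher at day 1 (median 5.06), and the part of leukocytes in the signalling values was not tested. Genes that hold osteoclast formation back were 8 of 16 higher and 1 lower at day 1 (median 1.08), and 1 of 16 higher and 2 lower at day 3 (median 0.44). Against 30.7% and 14.2% of all genes, 56.2% and 18.8% of these were past 2-fold. With ribosomal protein genes at 0 the day 3 split was 8 higher and 0 lower (median 0.97). Among them Irf8, which opposes Nfatc1, was at 3.18 and 0.82, and the repressor Bcl6 at 0.79 and 0.49. The highest were the inhibitory receptor Lilrb4a (6.64 and -1.21) and the phosphatase Ptpn6 (4.54, day 1 only), the latter also in the pan-leukocyte list. The lowest were Rcan1, an inhibitor of calcineurin (-1.09 and 0.60), and Id2 (-0.49 and -0.13). At day 1 the signalling list and the list of restraining genes both had a median of 1.08, and the ligands and receptors had 1.23.

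**Figure D4:**
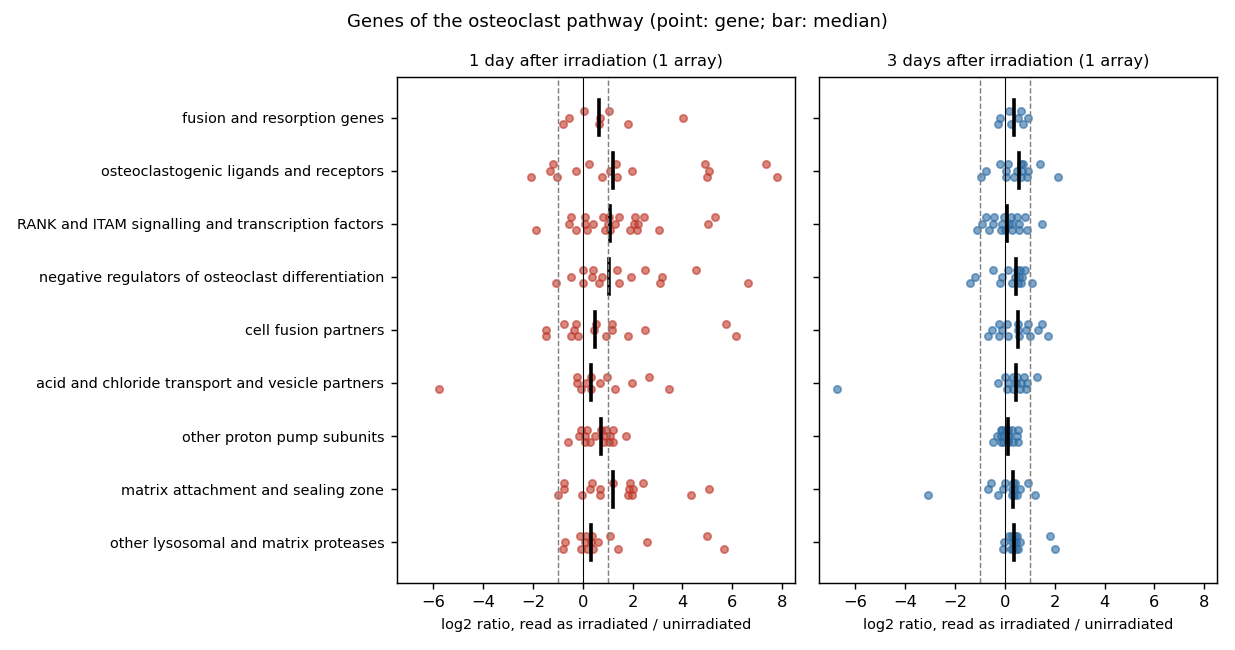
Log2 ratios of single genes (points) and medians (black bars) for the fusion and resorption genes and for 8 other lists of the osteoclast programme, at day 1 (left) and day 3 (right), with dashed lines at 2-fold. The medians at day 1 run from 0.34 to 1.23 and those at day 3 from 0.07 to 0.57; the point far to the left on both arrays is Car2, at -5.77 and -6.73.

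Other genes tied to cell fusion were 6 of 16 higher and 2 lower at day 1 (median 0.49), and 3 of 16 higher at day 3, with 0 lower (median 0.53). Against 30.7% and 14.2% of all genes, 50% and 18.8% of these were past 2-fold. The highest were the chemokine receptor Ccr2 (6.17, day 1 only) and the integrin Itgb2 (5.74 and 0.93), both of which also stand in a leukocyte list. The lowest were the podosome scaffold Sh3pxd2a (-1.48 and 0.11) and podoplanin, Pdpn (-1.47 and -0.50). Dcstamp, at 4.05, lay below Ccr2 and Itgb2 and above the other 14.

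Subunits of the proton pump lay mostly above 0 at day 1 and closer to 0 at day 3. Of the 17 other subunits and accessory proteins measured at day 1, 5 were higher by 2-fold or more and 0 lower, or 29.4% past 2-fold, close to the 30.7% of all genes. Their median was 0.73, with 14 of 17 above 0. With ribosomal protein genes at 0, 9 of 17 were higher, where 35.8% of all genes were past 2-fold. At day 3 none of 19 were past 2-fold, against 14.2% of all genes, and the median was 0.12. That became 3 of 19 higher (median 0.65) with ribosomal protein genes at 0, where 25.2% of all genes were past 2-fold. Tcirg1 (1.82 and 0.92) was above all of them on both arrays, though Atp6v1b2, a subunit of the catalytic head, was close to it at day 1 (1.72, and -0.15 at day 3). The next highest by the mean of both arrays was the accessory protein gene Atp6ap2 (0.94 and 0.53). The lowest were Atp6v1f (-0.08 and -0.34) and Atp6v0e2 (-0.58 and 0.29). Tcirg1 can be set beside the widely expressed a subunits Atp6v0a1 (0.85 and 0.13) and Atp6v0a2 (0.08 and -0.03). It exceeded Atp6v0a1 by 0.97 at day 1 and 0.79 at day 3, where the pooled SD between probes was 0.76 and 0.58. That SD is for single values and a difference between genes spreads more, so neither difference can be called beyond it. Atp6v0d2 had the smaller ratio beside its widely expressed counterpart Atp6v0d1 (1.24 and 0.04), by -0.56 and -0.25, which is within the spread between probes.

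**Figure D5:**
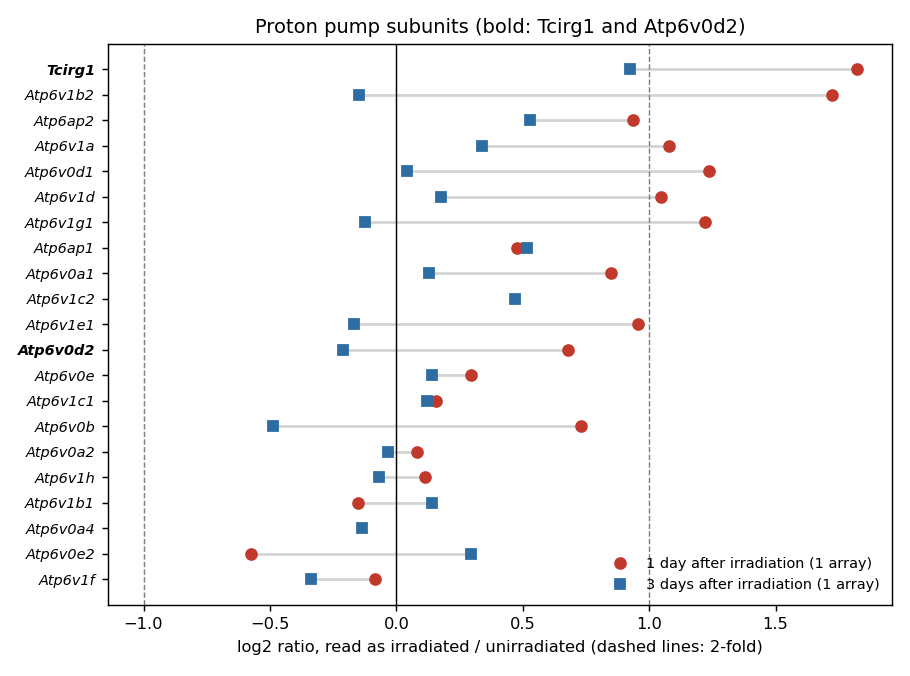
Log2 ratios of 21 proton pump genes, ordered by the mean of the available arrays, at day 1 (red circles) and day 3 (blue squares), with grey lines joining both values of a gene and dashed lines at 2-fold. Tcirg1 (1.82 and 0.92) is at the top on both arrays, Atp6v0d2 (0.68 and -0.21) lies among the other subunits, and no gene is past 2-fold at day 3.

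Around Clcn7, partners in acid and vesicle transport were 4 of 13 higher and 1 lower at day 1, and 1 of 15 higher and 1 lower at day 3. Their medians were 0.34 and 0.46. Against 30.7% and 14.2% of all genes, 38.5% and 13.3% of these partners were past 2-fold. Ostm1, the beta subunit that Clcn7 needs for its stability, was at 0.98 at day 1 and 0.48 at day 3. Clcn7 minus Ostm1 was -0.93 at day 1 and 0.16 at day 3, and neither can be called beyond the spread between probes. The related chloride transporters Clcn3 (-0.21 and 0.78) and Clcn5 (-0.08 and -0.29) were within 2-fold. The sorting nexin Snx10 (3.46 and 0.86), whose loss also causes osteopetrosis, and the small GTPase gene Rab27a (2.67 and 0.61) were the highest. Car2, the carbonic anhydrase that supplies protons to the pump, was the lowest of the list by far, at -5.77 and -6.73. Car2 is also abundant in red cell precursors. Erythroid markers were lower on the same arrays, 7 of 8 at day 1 and 8 of 10 at day 3, with ranges of -4.80 to -0.68 and -5.19 to -0.56, and the part of these cells in the Car2 ratio was not tested.

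Genes for attachment to bone and for the sealing zone were 9 of 17 higher at day 1, with 0 lower (median 1.23). At day 3, 1 of 16 was higher and 1 lower (median 0.31). The shares past 2-fold were 52.9% and 12.5%, against 30.7% and 14.2% of all genes. The osteoclast integrin subunit Itgb3, which is shared with platelets, was at 0.30 and -0.55, within 2-fold on both arrays. The kinase Src, needed for the ruffled border, was at 1.23 and 0.29. The highest by mean were the actin regulator Was (4.36, day 1 only), also in the pan-leukocyte list, and the kinase Ptk2b (1.998, day 1 only). At day 1 alone the GTPase gene Rac2, also in the pan-leukocyte list, was the highest (5.06, and -3.09 at day 3), and Pxn (2.41) and Tln1 (2.01) also exceeded Ptk2b; these 3 were named after their values were seen. The lowest were the actin-severing gelsolin gene Gsn (-0.75 and -0.67) and osteopontin, Spp1 (-0.99 and -0.07), which is also an osteoblast marker.

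Other proteases and lysosomal enzymes were 5 of 16 higher at day 1 (median 0.34) and 2 of 16 at day 3 (median 0.38), with 0 lower on either array. These shares of 31.2% and 12.5% past 2-fold were close to the 30.7% and 14.2% of all genes. The gelatinase Mmp9 (5.66 and 1.99), which is made by osteoclasts and is also a granulocyte marker, and cathepsin S, Ctss (5.01 and 1.80), were the highest on average, and both were at least 2-fold higher on both arrays. The lowest were the cathepsin inhibitor cystatin C, Cst3 (-0.72 and 0.51), and the collagenase Mmp13 (-0.80 and 0.41). Ctsk (-0.57 and 0.51) lay close to these genes on both arrays, and below cathepsin S by -5.58 at day 1 and -1.29 at day 3. Of the broadly expressed cathepsins, Ctsl was at 0.42 and 0.59 and Ctsb at 0.11 and -0.08. Acp5 (0.66 and 0.24) differed from the lysosomal acid phosphatase Acp2 (0.10 and 0.35) by 0.56 at day 1 and by -0.11 at day 3, both within the spread between probes.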

How the data were processed

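The authors deposited 1 log ratio of both channels per probe and array, read here as a log2 value; per the labels, total RNA was amplified as amino allyl RNA and coupled to Cy5 (unirradiated) or Cy3 (irradiated). Scanner, background correction, normalisation and the filter behind empty entries (9515 of 23473 probes at day 1, 8056 at day 3) are not given in the sources used here. Intensities were not analysed here, so signal over background is unknown, and precision is limited by having 1 array per time point. The deposited medians were 0.0003 and -0.0001. Of the probes, 16631 carried 1 symbol, none several, and 6842 none; symbols were updated through RefSeq genes (GRCm38.p6), 12622 being current and 3947 older names. Probes of a gene were averaged (229 genes had more than 1), and the gene median was set to 0, moving values by 0.0119 at day 1 and -0.0162 at day 3. Python 3.11.15 and pandas 2.3.3 were used, and the steps were tested on simulated data. The 10 genes and all lists were chosen with earlier results of these data known. Genes named from a list were its 2 highest and 2 lowest (mean over arrays with a ratio), plus a set named in any case; 1 item is not reported here. Counterparts set beside a listed gene (Atp6v0a2, Clcn3, Ctsl, Ctsb and Acp2) fall outside that rule.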

Additional observations from a re-analysis of the deposited data

Results flagged for a closer look

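Of the 7 genes with a ratio on both arrays, Ctsk alone had ratios on opposite sides of 0 and at least 2-fold apart. Its difference (day 3 minus day 1) was 1.08, from -0.57 at day 1 and 0.51 at day 3. With the density peak at 0 it was 0.89, under 2-fold. Between the days 28.9% of 9800 genes were past 2-fold, whether or not they changed side. The Ctsk difference was not tested, since each time point had 1 array, and the pooled SD between probes of a gene was 0.73 for such differences (77 genes).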

How the results depend on the processing

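The counts past 2-fold depended on the zero and on the threshold, because several of the 10 genes lie near 1 in size. The share of all genes past the rule, given in brackets, moved with the same settings. At day 1 the count of 3 (30.7%) became 5 with ribosomal protein genes at 0 (35.8%), 6 with a 1.5-fold rule (5 higher and Oscar lower; 53.7%) and 1 with a 4-fold rule (8.81%). If the values were natural logarithms, an alternative chosen after seeing the data, it was 4 (3 higher and Oscar lower; 46.8%). At day 3 the count of 0 (14.2%) became 4 with ribosomal protein genes at 0 (25.2%), 3 with a 1.5-fold rule (35.4%) and 2 with natural logarithms (27.7%), all higher. For day 3 minus day 1 the count of 1 (28.9%) became 3 with the density peak at 0 (all lower; 28.9%), 5 with a 1.5-fold rule (2 higher and 3 lower; 50.7%), 0 with a 4-fold rule (7.42%) and 4 with natural logarithms (1 higher and 3 lower; 44.1%). Other lists moved alike with ribosomal protein genes at 0: at day 3, 6 of 20 signalling genes, 9 of 16 fusion partners, 7 of 15 acid transport partners, 4 of 16 attachment genes and 5 of 16 proteases were then at least 2-fold higher. Over the reported and the 4 other centrings, the medians of the measured genes ran from 0.66 to 1.19 at day 1 and 0.37 to 0.91 at day 3. For the difference they ran from -0.61 to -0.40. These centrings moved day 1 and day 3 almost only upward, and the difference too little upward, for any sign to change. The kept signs are therefore no support. The rule on probes changed no count, but each of the 10 genes had 1 probe, so it could move only the zero. That setting is therefore no support for the counts. Accepting only current symbols removed Dcstamp, which left 2 genes higher at day 1. No paired analysis was possible because each time point had 1 array and the result comes from no test. Signal over background was not measured, so what dim probes can show is unknown.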

Other observations

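Factors through which osteoclasts signal to bone-forming cells, a list outside the comparisons above, were 3 of 10 higher and 2 lower at day 1. At day 3, 1 of 10 was higher and none lower. Their medians of -0.26 and -0.09 turned to 0.27 and 0.44 with ribosomal protein genes at 0. Against 30.7% and 14.2% of all genes, 50% and 10% of these factors were past 2-fold. The highest by mean were the semaphorin Sema4d (2.27 and 0.68), which restrains osteoblasts, and the cytokine Lif (1.78, day 1 only). The lowest were Sphk1 (-2.09 and -0.74) and the secreted matrix protein Cthrc1 (-1.24 and -0.89).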
